A study of Mus musculus with 2 samples.

Results

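In mouse ureters at E14.5, with or without conditional loss of Rbpj (Rbpj-cKO and control), transcripts of 10 genes of the neuronal cytoskeleton, growth cone and RNA-binding machinery were measured. The genes are Tubb3, Nefl, Nefm, Ina, Prph, Stmn2, Stmn3, Gap43, Elavl3 and Elavl4. They were chosen by name, as the non-control probes whose gene name on both arrays is one of these symbols, which gave 12 probes of 10 genes among 39429 probes on the array. Of the 10 genes, 10 passed the filter on dim probes, beside 20495 genes tested in all. Every one of the 12 probes was well above background on all 4 of its spots in all 4 channels.

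The Rbpj-cKO ureters had the genotype Tbx18(cre/+);Rbpj(fl/fl), in which a Cre recombinase made from the Tbx18 locus acts on floxed Rbpj alleles. The control ureters are labelled Rbpj(fl/?), with the second allele not stated and no Cre allele listed. All embryos were of the NMRI strain. Each of the 2 arrays held 1 Rbpj-cKO and 1 control RNA in different dyes. Replicate 1 was a male pair with Rbpj-cKO in AlexaFluor647 (red), and replicate 2 a female pair with Rbpj-cKO in AlexaFluor555 (green), so sex and dye orientation cannot be told apart. The sources used here do not say how many embryos gave each RNA. The p-values measure only the spread between these arrays, which limma takes partly from the gene itself and partly from all genes tested. Tbx18 is known for its expression in the mesenchyme around the ureteric epithelium, so the Cre is driven by a mesenchymal gene.

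Ureters carry nerve fibres and ganglion cells of the autonomic system, which derive from the neural crest, and axons of sensory neurons whose cell bodies lie in dorsal root ganglia. Young neurons fill their axons with a microtubule core built from neuronal tubulin and with neurofilaments, which are intermediate filaments that set the calibre of the axon. Stathmins bind tubulin and keep microtubules dynamic in the growing tip, and neuronal ELAV (Hu) proteins bind AU-rich stretches of messenger RNA and stabilise or redirect the splicing of neuronal transcripts. Messenger RNA in dissected tissue comes mainly from cell bodies, with a smaller part carried in axons. In bulk tissue, fewer cells of a type and less RNA per cell cannot be told apart.

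The arrays read each gene through 60-base probes, and stretches of 4 of them are shown here: those of Prph and Nefl, whose ratios differed most between the arrays, of Stmn2, whose ratios differed least, and of Tubb3, the tubulin among the 10 genes. Each line gives bases 31 to 60 of the probe, 5′ to 3′ as deposited, with the polyadenylation signal AATAAA in capitals where it occurs.
Tubb3: acttAATAAAgttactgctgtctgtcagat
Stmn2: gatgAATAAAgaattggagttctgtgaact
Nefl: ttacgcagagtatctgtttgcttgcagagt
Prph: ctggacaagtcttctatccacagctactga
The mm9 positions of these probes, per the file headers, are chr8:125945850-125945909 for Tubb3 and chr3:8561545-8561604 for Stmn2. The Nefl probe lies at chr14:68705638-68705698 and the Prph probe at chr15:98889042-98889101. All 4 lie on the plus strand. Exon and UTR annotation of mm9 was not used here.

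Each ratio is given as log2, Rbpj-cKO divided by control, after background correction and loess normalization. Levels are normalized log2 intensities of single channels, which can be compared between channels for 1 probe but not between probes. For Rbpj itself, the targeted gene, the brighter probe gave log2 ratios of -1.13 and -0.63 (mean -0.88 ± 0.35 SD, n = 2; limma adjusted p = 0.776), and both Rbpj-cKO levels lay below both control levels. Across the 20495 genes replicate 1 and replicate 2 were negatively correlated once the dye was turned (Pearson's r = -0.35, a description with no p), and the dye direction was kept as the labels give it. Between 67.8% and 70.1% of the spots were well above background in each channel.

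On replicate 2 the log2 ratio was above 0 for 10 of the 10 genes, as for 51% of all genes, and 6 were at least 1.5-fold higher in Rbpj-cKO, where 1.11% of all genes tested were. These 6 are Prph, Nefl, Stmn3, Elavl3, Nefm and Tubb3, with log2 ratios from 0.88 to 1.57. None of the 10 was at least 1.5-fold lower there, where 1.88% of all genes were. On replicate 1 the same direction was not seen for all of them: 6 of the 10 ratios were above 0 against 50.3% of all genes, 0 genes were at least 1.5-fold higher where the background is 1.4%, and 1 gene, Prph, was at least 1.5-fold lower where the background is 0.356%. The 10 genes had a median log2 ratio of 0.058 on the male array and 0.97 on the female array, against 0.0012 and 0.0046 over all genes. The median of the 2-array means was 0.42, against -0.0033 over all genes, and the means ran from 0.25 for Ina and Gap43 to 0.71 for Stmn3.

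None of the 10 genes passed the test across all genes. With limma's moderated test, 0 of the 10 had an adjusted p under 0.05, beside 0% of the 20495 genes, and the 10 adjusted p-values all equalled 1. Stmn2 and Stmn3, 2 of the 10, had an unadjusted p under 0.05, both in the higher direction. The background is 1.82% in either direction and 1.29% in that one. None was at least 1.5-fold higher on both arrays, where the background is 0.132%, and none was at least 1.5-fold lower on both, where it is 0.0634%.

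**Figure D1:**
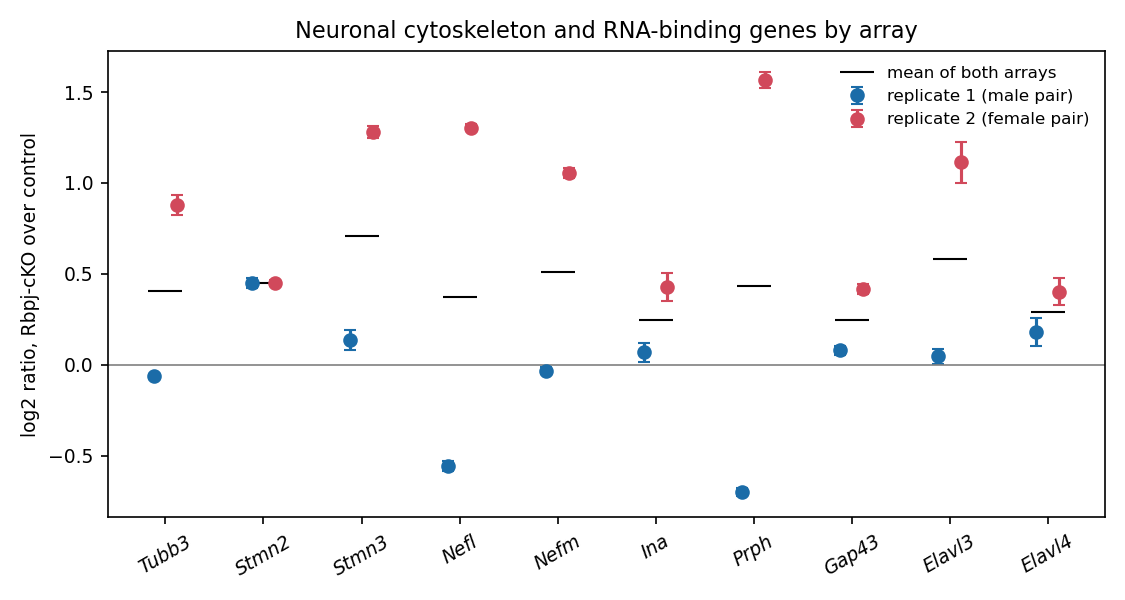
Log2 ratio of Rbpj-cKO over control (vertical axis) for each of the 10 genes (horizontal axis) on replicate 1 (blue, male pair) and replicate 2 (red, female pair), with bars of ± 1 SD over the spots of the probe and a black dash at the mean of both arrays. All 10 red points lie above 0, from 0.40 for Elavl4 to 1.57 for Prph, while the blue points run from -0.70 for Prph to 0.45 for Stmn2.

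The SD over the spots of a probe was at most 0.11 in either array for the probes used. It covers repeat spots of 1 probe alone and not the spread between ureters, sexes or dyes. The gap between the arrays was smallest for Stmn2, whose ratios of 0.45 and 0.45 differed by 0.00012.

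Among the microtubule genes, Tubb3 encodes the class III beta-tubulin of neurons. Its levels were 10.33 in Rbpj-cKO and 10.39 in control on replicate 1, and 10.75 and 9.87 on replicate 2. The groups overlapped, since the male control lay above the male Rbpj-cKO, while the female pair held both the highest and the lowest level. Its log2 ratios of -0.06 and 0.88 averaged 0.41 ± 0.67 (SD, n = 2 arrays, as for every SD that follows), which is 1.33-fold (limma adjusted p = 1).

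Stmn2 (SCG10) is a membrane-bound stathmin of growth cones. Its levels were 12.95 in Rbpj-cKO and 12.50 in control on replicate 1, and 12.79 and 12.34 on replicate 2. Both Rbpj-cKO levels lay above both control levels, by the same amount on each array. The mean log2 ratio was 0.45 (1.37-fold, SD 8.41e-05, n = 2; unadjusted p = 0.0115 and adjusted p = 1 with limma). It was above the ratios of 97.7% of all genes on replicate 1 and of 97.8% on replicate 2. The scanner software's processed signal, in linear units, was 2612 and 1915 for Rbpj-cKO and control on replicate 1, and 2024 and 1459 on replicate 2.

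Stmn3 (SCLIP) is a related neuronal stathmin. Its levels were 10.73 in Rbpj-cKO and 10.59 in control on replicate 1, and 11.06 and 9.78 on replicate 2. The groups did not overlap, and the female control stood lowest. Ratios of 0.14 and 1.28 gave a mean of 0.71 ± 0.81, or 1.64-fold, the highest mean of the 10 genes (unadjusted p = 0.0303 and adjusted p = 1 with limma). The Stmn3 probe (mm9 chr2:181041396-181041455, minus strand) does not hold AATAAA.

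Among the intermediate filament genes, Nefl encodes the light and Nefm the medium neurofilament chain. They lie close to each other on chromosome 14, with their probes 32495 bases apart, and the RefSeq gene table of build GRCm38.p6 lists 1 other gene, Gm19216, between them. The levels of Nefl were 11.14 in Rbpj-cKO and 11.69 in control on replicate 1, and 12.12 and 10.82 on replicate 2. The highest Nefl level was thus the female Rbpj-cKO and the lowest the female control, with the male pair between them in the other order. Its log2 ratios were -0.56 and 1.30, with a mean of 0.37 ± 1.31.

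Nefm (probe at chr14:68738193-68738252, minus strand) had levels of 9.99 in Rbpj-cKO and 10.03 in control on replicate 1, and 10.85 and 9.80 on replicate 2. One channel, the female Rbpj-cKO, stood above the other three, and the groups overlapped because the male Rbpj-cKO lay just under the male control. Log2 ratios of -0.03 and 1.06 averaged 0.51 ± 0.77. Both neurofilament chains were therefore more than 2-fold higher in the female Rbpj-cKO, by 2.47-fold for Nefl and 2.08-fold for Nefm. In the male pair Nefl was 1.47-fold and Nefm 1.02-fold lower in Rbpj-cKO.

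Prph encodes peripherin, an intermediate filament typical of peripheral neurons, and differed most between the arrays. Its levels were 9.19 in Rbpj-cKO and 9.89 in control on replicate 1, and 10.30 and 8.73 on replicate 2. The order was the same as for Nefl, with the female control lowest and the female Rbpj-cKO highest. Peripherin ratios were -0.70 and 1.57, with a mean of 0.43 ± 1.60, which is 1.62-fold lower in the male and 2.96-fold higher in the female Rbpj-cKO. In processed signal, the male pair read 185 in Rbpj-cKO and 319 in control, and the female pair 359 and 106. On replicate 1 Prph stood above only 0.229% of all genes and on replicate 2 above 99.9%. Of the 10, 1 gene (Prph) was past 1.5-fold in one direction on the male array and in the other on the female array, and 0.717% of all genes tested were.

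Ina encodes alpha-internexin, a neurofilament subunit that appears early in young neurons. Its brighter probe (mm9 chr19:47098781-47098840, plus strand) had levels of 9.79 in Rbpj-cKO and 9.72 in control on replicate 1, and 9.74 and 9.31 on replicate 2. The female control was the low channel, and the others lay close together. For this probe the log2 ratios were 0.07 and 0.43, with a mean of 0.25 ± 0.25. A second probe (chr19:47099350-47099409) gave 0.02 and 0.36, a mean of 0.19 ± 0.24, so both probes had the same signs. The 4 filament genes together had medians of -0.29 in the male and 1.18 in the female pair (log2 ratios).

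Gap43 encodes a protein of the growth cone membrane. Its levels were 12.60 in Rbpj-cKO and 12.52 in control on replicate 1, and 12.70 and 12.28 on replicate 2. The Rbpj-cKO levels lay above the control levels without overlap, by a margin of 0.08 between the male channels. Gap43 ratios of 0.08 and 0.42 averaged 0.25 ± 0.24.

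Among the RNA-binding genes, Elavl3 encodes HuC and Elavl4 HuD, both of which are used to mark neurons. Elavl3 had levels of 9.85 in Rbpj-cKO and 9.80 in control on replicate 1, and 10.28 and 9.17 on replicate 2. The male channels lay between the female Rbpj-cKO and the female control, with no overlap of the groups. The pair of Elavl3 ratios was 0.05 and 1.11, with a mean of 0.58 ± 0.75 (unadjusted p = 0.0521 with limma).

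Elavl4 was measured by a pair of probes that differed in size of effect. The brighter one (mm9 chr4:109877455-109877514, minus strand) had levels of 9.76 in Rbpj-cKO and 9.59 in control on replicate 1, and 9.97 and 9.56 on replicate 2, with log2 ratios of 0.18 and 0.40 and a mean of 0.29 ± 0.16. The dimmer one (chr4:109878558-109878617) had levels of 7.36 and 7.52, and of 7.86 and 6.89, with log2 ratios of -0.16 and 0.97 and a mean of 0.41 ± 0.80. The control levels were nearly equal on the brighter probe and further apart on the dimmer one, and the pair of Elavl4 probes do not give 1 size for the gene. On the brighter probe the groups did not overlap, and on the dimmer one they did.

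**Figure D2:**
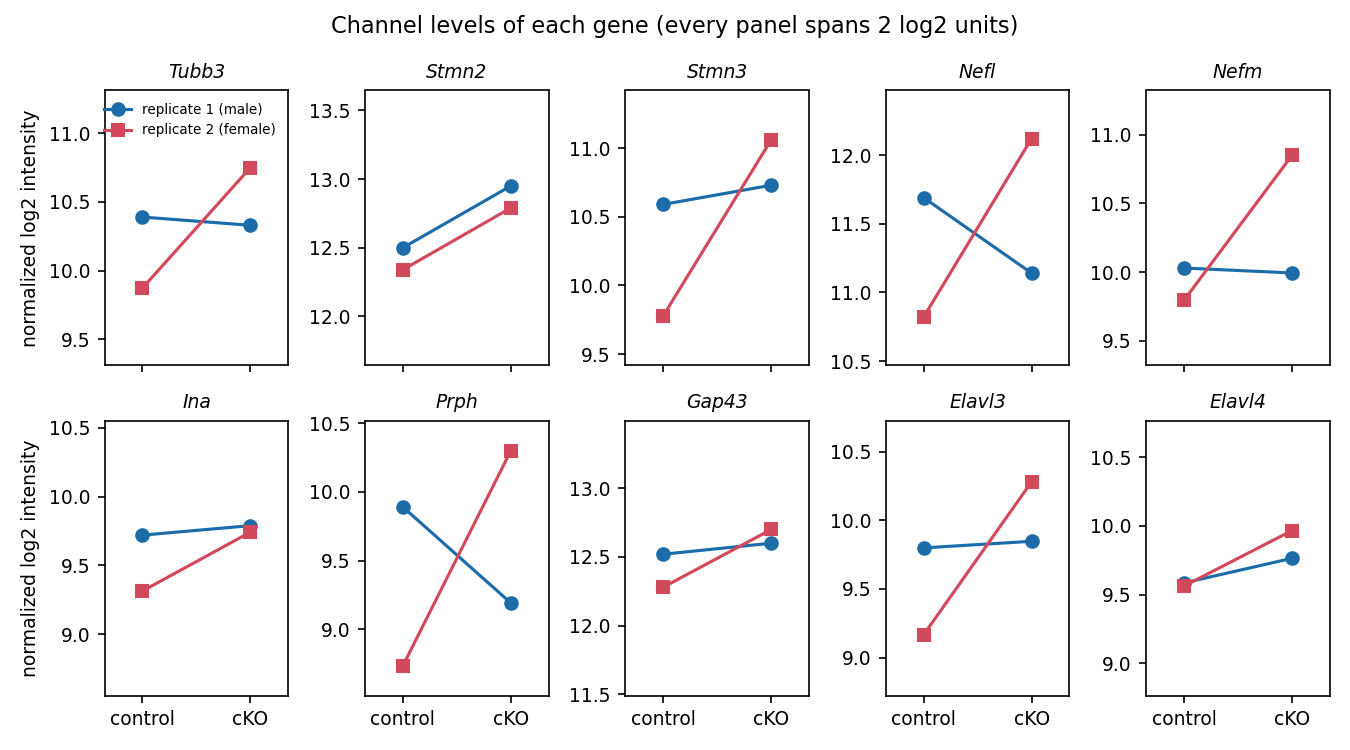
Normalized log2 intensity (vertical axis, each panel 2 log2 units tall) in control and Rbpj-cKO for each of the 10 genes, with lines joining the channels of 1 array (blue circles, replicate 1, male; red squares, replicate 2, female). The red lines climb in every panel, by 0.40 to 1.57, and cross the blue ones in 8 of the 10. The blue lines descend in Nefl and Prph and, by much less, in Tubb3 and Nefm.

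Set side by side, both Rbpj-cKO levels lay above both control levels for 6 of the 10 genes (Stmn2, Stmn3, Ina, Gap43, Elavl3 and Elavl4), and for 10.3% of all genes tested. For 0 of the 10 did both lie below, against 8.45% of all genes. Of the 10 genes, 6 had ratios above 0 on both arrays (background 16.1%), 0 had ratios below 0 on both (background 14.7%), and 4 had opposite signs (background 69.2%). For those 4, Tubb3, Nefl, Nefm and Prph, the channel labelled red was the lower one on each array. In the control channels, each of the 10 genes had a lower level in the female than in the male, as did 52.4% of all genes tested, with log2 differences from -0.02 for Elavl4 to -1.16 for Prph. In the Rbpj-cKO channels, 8 of the 10 had a higher level in the female, against 49.9% of all genes tested, by up to 1.11 for Prph, the exceptions being Stmn2 and Ina. These differences between arrays also change the dye, and their parts were not tested.

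Base composition of the probes moved with the gap between arrays within the 10 genes. GC content ran from 35% for the probes of Elavl4 and Gap43 to 50% for that of Prph, and its correlation with the array deviation, defined as (replicate 1 minus replicate 2)/2 of the log2 ratios, was r = -0.86 over the 10 probes, which share the same 2 arrays. Over all 20495 genes that correlation was r = 0.23, of the other sign. The 520 genes whose probe has 50% GC had a median array deviation of 0.06, where that of Prph was -1.13. The 1351 genes at 41.7% GC had a median of -0.0022, where Nefl, Stmn3 and Tubb3 lay at -0.93, -0.57 and -0.47. The part of base composition in the gap was not tested.

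**Figure D3:**
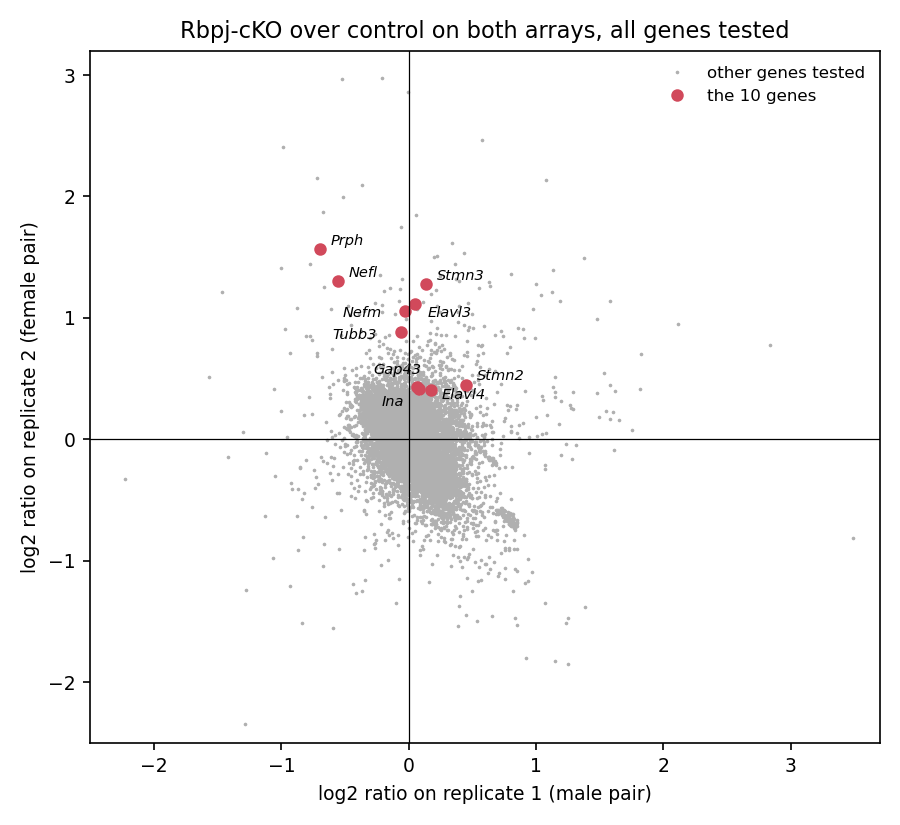
Log2 ratio of Rbpj-cKO over control on replicate 1 (horizontal axis) against replicate 2 (vertical axis) for the 20495 genes tested (grey), with the 10 genes in red. All 10 lie above the horizontal zero line, and Stmn2 lies farthest to the right at 0.45. Prph and Nefl lie to the left of the vertical line, as do, just past it, Tubb3 at -0.06 and Nefm at -0.03.

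A search was made for the genes whose pair of ratios lay nearest to the pair of medians of the 10 genes (0.06 and 0.97). It used Euclidean distance over the 2 arrays and left out the 10 genes and genes with clone, predicted-gene or accession names. The nearest of the remaining genes were Slitrk6, Vat1l, Cadps, Dlx2 and Svop. Slitrk6, the nearest of these 5 at a distance of 0.08, had -0.02 and 0.99, and Svop, the last of the 5 at 0.14, had 0.17 and 0.88. With 2 arrays this likeness rests on 2 values per gene.

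Of 27 other genes of the axon cytoskeleton and growth cone, 9 had ratios above 0 on each array and 4 below, 14 had opposite signs, 0 passed the test, and the medians of log2 ratios were 0.08 for the male and 0.07 for the female pair. Nefh, the heavy neurofilament chain, had 0.29 and 0.86, and Kif5a, a neuronal kinesin motor that carries cargo along axons, had 0.24 and 1.05. Map6, which stabilises microtubules against cold, had 0.38 and 0.38. On the lower side Basp1, a growth cone membrane protein like Gap43, had -0.09 and -0.87. Each of these 4 genes had an adjusted p of 1 with limma. Over all genes tested, 16.1% had both ratios above 0, 14.7% both below and 69.2% opposite signs, as background for every list.

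Of 14 further neuronal RNA-binding genes, 5 had both ratios above 0 and 1 had both below, 8 had opposite signs and 0 passed the test, with medians of 0.0051 and 0.24. Srrm4, a splicing factor of neuronal microexons, had 0.37 and 1.32, and Celf6 1.09 and 0.20. Elavl2, the third neuronal ELAV gene, had -0.0040 and 0.66. Rbm24, a member of the list that acts in the splicing of muscle transcripts, had 0.28 and 0.49, so the list is not purely neuronal. The summed processed signal of the list was 4609 in Rbpj-cKO and 4724 in control on replicate 1, and 4668 and 3394 on replicate 2. The female control was thus the low channel in the sum too.

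A list of relatives of the 10 genes, mostly but not all widely expressed, had medians near 0. Of 14 such genes, among them the tubulins Tubb5 and Tuba1b, the stathmin Stmn1, the ELAV gene Elavl1 and the filament gene Vim, 3 had both ratios above 0 and 0 had both below, the medians being 0.07 and 0.03, and 0 passed the test. Des, desmin of muscle, had 0.35 and -0.95, Synm -0.04 and 0.34, Tubb6 0.12 and 0.09, and Nes, nestin, 0.15 and -0.32.

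Markers of the neuron types that could carry these transcripts had different medians. Of 17 sympathetic and chromaffin genes, 11 had both ratios above 0 and 2 both below. At least 1.5-fold higher on both arrays were 5 of the 17, where the background is 0.132% of all genes tested. The 17 genes had medians of 0.55 and 0.77, and 0 passed the test. Their summed processed signal was 49380 and 21657 in Rbpj-cKO and 22706 and 15838 in control, replicate 1 before replicate 2, and none of the 17 was dim in every channel, which means well above background on fewer than 2 of the 4 spots of each of its probes. The list members with the lowest p were Slc18a1 (1.48 and 0.99), Chga (2.11 and 0.95), Phox2a (0.64 and 1.26) and Dbh (1.83 and 0.70). The channel levels of Chga and Dbh overlapped between the groups, while both Rbpj-cKO levels lay above both control levels for Slc18a1 and Phox2a. Slc18a1, Chga and Dbh had their higher ratio on the male array, whereas 9 of the 10 cytoskeletal and RNA-binding genes had theirs on the female array and Stmn2 was even. Their part in the ratios of the 10 genes was not tested.

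Of 5 measured cholinergic genes, 5 had opposite signs, as did 69.2% of all genes tested. The medians of the 5 were -0.05 and 0.52. Slc18a3, the vesicular acetylcholine transporter, had -0.72 and 2.15, Chat, which makes acetylcholine, -0.05 and 0.52, the receptor subunit Chrnb4 -0.0063 and 0.33, and Ache 0.07 and -0.29. The list's summed signal was 329.4 and 489.6 in Rbpj-cKO and 471.6 and 172.9 in control. The order of the 4 channels in this sum is that of Nefl and Prph. Chrna3, a receptor subunit of autonomic ganglia, was dim in every channel.

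Of 13 sensory neuron markers, 6 (Prdm12, Prrxl1, Scn10a, Scn9a, Tac1 and Trpv1) were dim in every channel, and the 7 tested had medians of -0.07 and -0.02, with 2 genes above 0 on each array and 3 below. Of the neurotrophin receptor genes, Ntrk2 had -0.28 and -0.29 and Ntrk3 0.37 and 0.19, and the peptide gene Calca had -0.33 and -0.03. The summed signal of the list was 5659 and 4796 in Rbpj-cKO against 6487 and 5508 in control.

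Of 17 pan-neuronal and synaptic genes, 10 had both ratios above 0 and 2 both below, the medians were 0.34 and 0.09, and 0 passed the test. The granin genes Scg3 and Scg2 had 0.59 and 0.93, and 1.15 and 0.51. The adhesion gene Cntn1 had 0.47 and 0.92, and Rtn1, a reticulon of neurons, 0.46 and 0.81. The summed signal was 33886 and 22421 in Rbpj-cKO and 27982 and 22159 in control, and Vsnl1 was dim in every channel.

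Of 9 Schwann cell and glial genes, 4 had both ratios above 0 and 0 both below, 0 passed the test, and the medians were 0.09 and 0.37. Fabp7, a lipid-binding protein of glial precursors, had 0.63 and 0.58, Sox10, the neural crest factor kept in glia, 0.20 and 0.38, Foxd3 0.02 and 0.51, and Cdh19 -0.06 and 0.39. Erbb3, a neuregulin receptor of Schwann cell precursors, was dim in every channel. The summed signal was 32380 and 29275 in Rbpj-cKO and 32533 and 25411 in control.

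**Figure D4:**
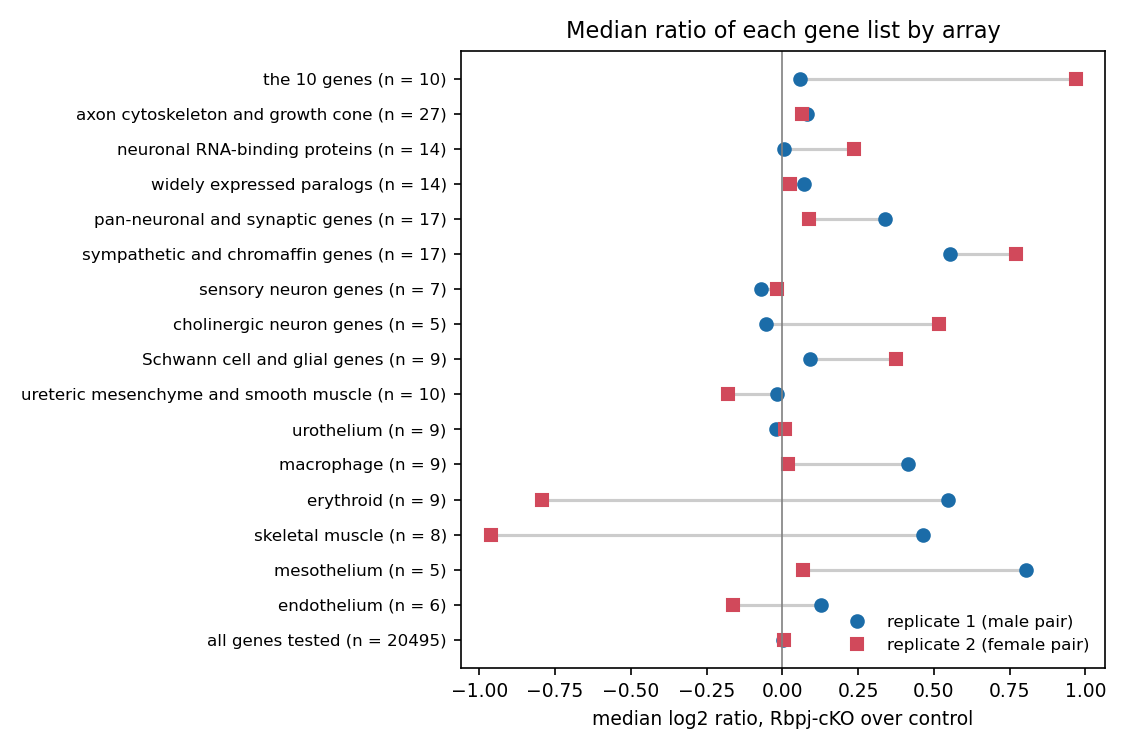
Median log2 ratio of Rbpj-cKO over control (horizontal axis) of each gene list (vertical axis, with the number of genes tested) on replicate 1 (blue circles, male pair) and replicate 2 (red squares, female pair). The 10 genes lie at 0.058 and 0.97, the sympathetic list at 0.55 and 0.77, and the erythroid and skeletal muscle lists on opposite sides of 0.

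Markers of the labelled tissue were present: of 10 genes of the ureteric mesenchyme and its smooth muscle and of 9 urothelial genes, none was dim in every channel. Their medians were -0.02 and -0.18, and -0.02 and 0.0086. Myocd, a coactivator of smooth muscle genes, had -0.67 and -1.04 (limma adjusted p = 0.651), Tbx2 0.17 and 0.52, Cnn1 -0.29 and -0.31, and Foxf1 -0.19 and -0.21. In the urothelium Krt5 had -0.36 and -1.25, Upk1a -0.16 and -0.16, Cdh1 -0.29 and -0.0054, and Upk2 -0.02 and 0.23.

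Genes of blood and skeletal muscle had medians above 0 on the male array and below 0 on the female array, the reverse of the signs of Nefl and Prph. Of 9 erythroid genes 8 had opposite signs, where 69.2% of all genes tested did. The erythroid medians were 0.55 and -0.79, and the summed signal was 210734 and 88374 in Rbpj-cKO and 135341 and 169889 in control. Of 8 skeletal muscle genes 8 had opposite signs, beside the same 69.2%. The muscle medians were 0.46 and -0.96, and the summed signal was 16604 and 9031 in Rbpj-cKO against 10965 and 18982 in control. Myf5 was dim in every channel. The macrophage list (9 genes) had medians of 0.42 and 0.02, the mesothelial list (5 genes) 0.81 and 0.07, and the endothelial list (6 genes) 0.13 and -0.16. The parts of these cell types in the ratios of the 10 genes were not tested.

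RefSeq promoters (build GRCm38.p6, 250 bases before to 50 after the start) were at hand for 6 of the 10 genes, as 9 promoters, and were searched for the core of the motif that Rbpj binds, since Rbpj is the gene removed. The letters TGGGAA, read on both strands (TTCCCA on the other), occur in 1 of the 9, against 25.6% of 32851 promoters of that length. The longer form GTGGGAA occurs in 0 of the 9, against 6.38%. Several of the 9 promoters belong to Elavl4 and some of those overlap, so the 9 are not separate genes. By gene, TGGGAA occurs in 1 of the 6. The one match is in the promoter of Ina (chr19:47014431-47014730, plus strand), at position -198 from the start site, and is set in capitals in the sequence, 5′ to 3′.
Ina: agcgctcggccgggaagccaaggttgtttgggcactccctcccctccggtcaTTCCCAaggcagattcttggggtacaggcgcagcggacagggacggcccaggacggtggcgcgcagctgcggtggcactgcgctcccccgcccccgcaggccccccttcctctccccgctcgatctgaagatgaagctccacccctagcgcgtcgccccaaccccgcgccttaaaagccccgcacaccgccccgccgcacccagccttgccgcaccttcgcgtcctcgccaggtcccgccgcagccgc
The match describes this window alone.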

How the data were processed

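RNA from Rbpj-cKO and control ureters was hybridised on 2 Agilent arrays, with 150 ng of total RNA per labelling per the labels' protocols. The deposited mean and local background intensity of each spot are linear and not normalized, per the file headers. The processed intensity and its log10 ratio were made by Agilent Feature Extraction 10.7.3.1 after background subtraction and dye normalization, per the file headers and the submitters' processing notes. The deposited flags of 0 or 1 mark spots well above background, saturated spots and outliers. The authors also deposited a table with a signed score per probe, which was read as a signed linear fold of Rbpj-cKO over control, since 0 values lie between -1 and 1 and it ran with the turned processed ratio (r = 0.78 and 0.85). The sources used here do not state its making or centring, both column medians are 1, and it served as an alternative.

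In limma 3.58.1 under R 4.3.3, normexp (offset 50) was applied to all spots and loess within each array with weight 0 for 17263 control spots. Outlier spots (3.57% and 3.9%) were left out, and 0 probe spots were saturated. Spot ratios were averaged per probe, and the sign was turned on replicate 2. A probe was kept if, on each array, either channel had at least 2 of its 4 spots well above background. The brightest kept probe stood for a gene. Names came through RefSeq accessions for 28328 probes, by symbol for 3400, and from the file for 7701. lmFit and eBayes tested whether the mean log2 ratio was 0 (two-sided, Benjamini-Hochberg over all genes; 1 residual and 5.57 prior degrees of freedom). Adding 50 to each signal draws the ratios of dim probes towards 0. Channel levels were further put on 1 scale with Aquantile. The procedure was tested on simulated spots. The 10 genes and the 15 gene lists were chosen with earlier results of these data known. Named genes are the 10, the up to 4 lowest p of each list, the 5 nearest patterns and Rbpj; the other genes are given for their list only. Alternatives changed the background correction, normalization, filter, moderation, input values and dye sign. The number of arrays limits the precision. Some members of the gene lists are not reported here by name.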

Additional observations from a re-analysis of the deposited data

Results flagged for a closer look

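For 3 of the named genes, the male and the female pair were each past 1.5-fold but in opposite directions. With 1 array per sex the difference was not tested, and sex and dye orientation cannot be told apart. Subtracting the female from the male log2 ratio gave -2.87 for Slc18a3, the vesicular acetylcholine transporter gene (-0.72 and 2.15). It was -2.26 for Prph (-0.70 and 1.57) and 2.10 for Chrna1, a muscle acetylcholine receptor subunit (0.65 and -1.45). All genes tested that behaved this way made up 0.717%.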

How the results depend on the processing

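Under the 10 alternatives that keep the labelled dye direction, the mean log2 ratio of each of the 10 genes stayed above 0 (100 of 100 values, from 0.22 to 0.75) and 0 of the 10 genes were called. Over all genes, the processed signals called 1 gene and trend with robust moderation 5, against 0. Genes past 1.5-fold with 1 direction on both arrays numbered 88 with the processed signals and 85 with the authors' deposited table, against 40.

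With the sign of replicate 2 not turned, that count was 147 and the count among the 10 genes 1, against 0. The median log2 ratio of the 10 genes was then -0.50, and the ratios were -0.47 for Tubb3, -0.57 for Stmn3, -0.93 for Nefl, -0.54 for Nefm, -0.18 for Ina, -1.13 for Prph, -0.17 for Gap43, -0.53 for Elavl3 and -0.11 for Elavl4, with adjusted p from 0.21 upwards (limma). That setting reads red over green on both arrays. A mean then lies below 0 where the turned ratio of replicate 2 exceeds the ratio of replicate 1, as for the genes just listed. Stmn2, whose ratios were nearly equal, came to 5.9e-05 and did not change sign.

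Leaving out each array leaves 1 array and no test. Genes past 1.5-fold then numbered 359 to 614, and 1 to 6 among the 10, with replicate 1 alone and replicate 2 alone giving medians of 0.058 and 0.97. The ratios ranged from -0.56 to 1.30 for Nefl, -0.70 to 1.57 for Prph, -0.063 to 0.88 for Tubb3 and -0.032 to 1.06 for Nefm. The ratio within an array already pairs the genotypes, and the test of its mean is a paired one. No paired analysis was possible beyond it, because the ratios form 1 group, to which no further replicate block can be added.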
